A study of Danio rerio with 11 samples.

Results

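Neuropeptide precursors and the genes that process them were examined in intraspinal serotonergic neurons (ISNs) of the zebrafish spinal cord. The genes were chosen by name, from a list of 48 names of peptide precursors, granins, prohormone convertases and trimming or amidating enzymes, with paralog letters allowed. Of these names, 39 matched, and they gave 50 gene IDs among the 39714 of the table. The 50 comprise 39 precursors, 4 granins and 7 processing genes. The names sst1, sst3, sst4, sst5, sst1.1, cart1, cart2, cart3 and calca had no match, and 2 IDs of GALC, a lysosomal galactosidase, were left out because their last letter marks no paralog of galanin. Some zebrafish genes carry the mammalian form of a symbol in capitals, such as PCSK1 or SCG3, and are written here as the reference gives them.

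GFP-positive cells were sorted from Tg(tph2:GFP) fish, in which a tph2 promoter drives GFP, and sequenced as 11 bulk RNA libraries that each pool cells. Of these, 6 hold cells of the injury segment and 5 those of distal segments, taken 6 to 8 weeks after the cord had been cut completely. The study used juvenile and adult fish of both sexes, aged 6 to 8 weeks, and took both kinds of segment from the same fish. No library came from an uninjured fish, so the distal ISNs are cells of injured animals as well.

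Neuropeptides are made as larger precursors that enter the secretory pathway and are packed, together with granins, into dense core vesicles. There prohormone convertases cut the precursor at basic residues, carboxypeptidase E (CPE) trims the ends, and many peptides are then amidated by peptidylglycine alpha-amidating monooxygenase (PAM). Serotonergic neurons are known to release peptides beside serotonin, and in mammals those of the medullary raphe that project to the spinal cord hold substance P and thyrotropin-releasing hormone.

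Levels are given as FPKM, in which fragments are scaled to gene length and to library total, so that genes of different length can be set side by side. The sum of FPKM over all genes still differed, from 650308 to 847919 over the injury libraries and from 664774 to 797117 over the distal ones. Library totals lay between 14215980 and 19709661 fragments. Libraries differed much more in the number of genes they detected, with 4530 to 16019 genes at 1 FPKM or more in the injury libraries and 8448 to 14208 in the distal libraries. Injury replicates 3 and 2 were lowest, at 4530 and 5443 genes, and injury replicates 5 and 6 highest, at 16019 and 15362. The serotonergic label held in all libraries: TPH2, the rate-limiting enzyme of serotonin synthesis in neurons, was at 1589.5 to 5396 FPKM in the injury libraries, against 1462 to 6042 FPKM in the distal ones. In such bulk samples, fewer cells of a type and less RNA per cell cannot be told apart. Nothing in the labels states that libraries of a group came from separate fish, so p-values measure the spread between these libraries.

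The comparison of injury with distal libraries asks whether ISNs that gather at the lesion use peptides other than those of ISNs elsewhere in the same cord. Of the 50 genes, 36 had a mean of at least 0.1 FPKM and were tested together with all other such genes, 24178 in total. No member had a limma adjusted p under 0.05, the lowest being 0.838, and neither did any other gene (0% of 24178, lowest 0.525). At an unadjusted limma p under 0.05, 2 members were called, against 2.68% of all genes tested. Of these, 1 was higher at the injury, where 0.658% of all genes tested were, and 1 was lower, where 2.03% were. These were penka and tac3a, both precursors. In no member did the 2 groups of libraries stand apart without overlap, against 0.252% of all genes tested (0.0662% higher and 0.186% lower at the injury). The log2 differences, injury minus distal on log2(FPKM + 1), had a median of -0.15 for the 4 granins, -0.06 for the 7 processing genes and 0.77 for the 25 precursors tested, beside -0.04 for all genes. Of the 25 precursors, 9 were at 0 in every distal library and passed the filter on low values through injury libraries alone. None was at 0 in every injury library. Of all 24178 genes tested, 2892 were at 0 in every distal library and 1051 in every injury library. The sign of the difference of these 9 precursors was thus fixed, and the median of the precursors is a description only.

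**Figure D1:**
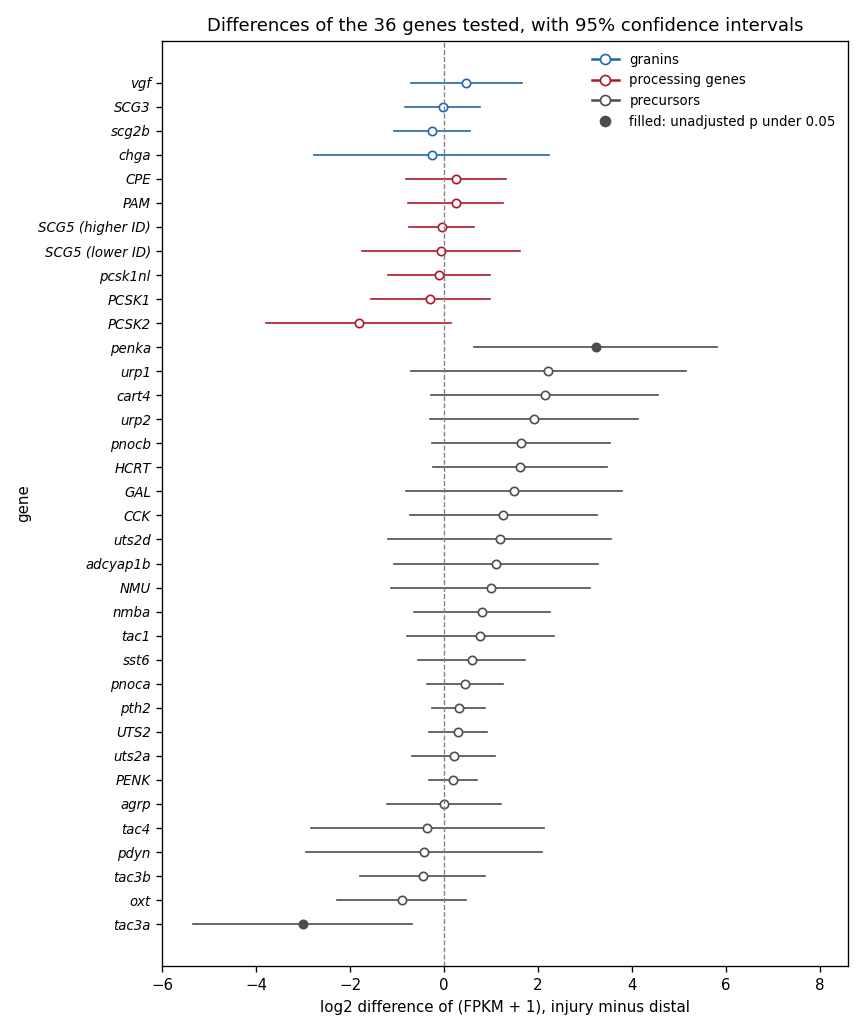
Log2 difference of FPKM + 1 (horizontal axis), injury minus distal, for each of the 36 genes tested (vertical axis), with 95% confidence intervals from limma that are not corrected for the number of genes. Filled points, for penka at 3.23 and tac3a at -3.02, had an unadjusted p under 0.05, and the intervals of all other genes include 0.

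Most granins and processing genes were expressed at more than 50 FPKM in every library, the exceptions being chga, PCSK2 and 1 of the 2 SCG5 IDs. Secretogranin II (scg2b, ENSDARG00000038574), a granin that helps to form dense core vesicles and is itself cut into peptides, ranked between 6th and 119th of all IDs in every library. It was at 1630.0, 999, 7699, 2230.4, 2292 and 1270.3 FPKM in injury replicates 1 to 6, against 1426, 5179.8, 1640.2, 2196 and 3627 FPKM in distal replicates 1 to 5. One injury library was the highest of all, and the groups overlapped throughout. Its mean was 2687 ± 2508 FPKM at the injury and 2814 ± 1577 FPKM in distal segments (SD, n = 6 and 5), with a log2 difference of -0.26 ± 0.40 (SE) and an exact permutation p of 0.645.

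Secretogranin III (SCG3, ENSDARG00000086288), which binds other granins to vesicle membranes, had 1329.7, 590.1, 3967, 1087, 1433 and 1037 FPKM in injury replicates 1 to 6, against 1214, 2158, 719.9, 1361 and 1666 FPKM in distal replicates 1 to 5. The log2 difference was -0.03 ± 0.39, with a 95% interval of -0.83 to 0.76, which leaves room for changes in either direction. The vgf gene (ENSDARG00000105529), a granin-like precursor induced by neurotrophins in mammals, was at 254, 68.2, 409, 319, 343 and 212 FPKM in injury libraries, against 79.0, 119.8, 238, 275 and 218 FPKM in distal libraries. Injury replicate 2 lay below all distal libraries while 3 of the 6 injury libraries lay above them, and the difference of 0.47 ± 0.57 had an exact permutation p of 0.366. Chromogranin A (chga), the remaining granin, was far lower and patchy. It was listed at 18.7, 0, 0, 25.6, 18.3 and 14.4 FPKM in the injury libraries, against 0, 91.1, 32.2, 0.153 and 14.0 FPKM in the distal libraries.

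Among the processing genes, the prohormone convertase PCSK1 (ENSDARG00000002600) was present in all libraries. It had 145, 94.1, 749.7, 121, 229 and 85.9 FPKM in injury replicates 1 to 6, against 166, 409, 99.96, 149 and 396 FPKM in distal replicates 1 to 5. The injury libraries held both the highest and the lowest value, and the log2 difference was -0.30 ± 0.62 (exact permutation p = 0.665). Its endogenous inhibitor proSAAS, encoded by pcsk1nl (ENSDARG00000076170), varied less, 2.87 times between the lowest and the highest library. It was at 179, 126, 250.2, 169, 243 and 131 FPKM at the injury, against 159, 226, 135, 146 and 362 FPKM in distal segments.

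The second neuroendocrine convertase, PCSK2 (ENSDARG00000019451), was below PCSK1 in all 11 libraries. It was listed at 1.24, 5.96, 0, 4.74, 2.61 and 7.11 FPKM in injury replicates 1 to 6, against 2.38, 22.3, 3.28, 29.1 and 37.4 FPKM in distal replicates 1 to 5. All injury libraries stayed below the 3 highest distal ones, while the other 2 distal libraries lay within the injury range. The log2 difference was -1.82 ± 0.96, with an unadjusted limma p of 0.0694 and an exact permutation p of 0.0714, so it passed neither test as reported. Under alternatives the exact p was 0.0286 without distal replicate 1, 0.0429 without distal replicate 3 and 0.0714 to 0.152 otherwise. The unadjusted limma p lay between 0.0116 and 0.189 over the alternative fits. PCSK2 and chga were singled out after their values were seen.

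SCG5 encodes 7B2, the chaperone that PCSK2 needs for maturation, and had 2 IDs. The more abundant one (ENSDARG00000032126) was at 1683, 1341, 1434, 961, 734 and 957 FPKM in injury libraries, against 1351, 1045, 2002, 725 and 1132 FPKM in distal libraries, a difference of -0.05 ± 0.33 on the log2 scale. Its level was thus above that of PCSK2 in each library. The other ID (ENSDARG00000077045) lay between 10.1 and 26.8 FPKM at the injury and between 7.82 and 37.3 FPKM in distal segments. Both had their highest value in distal replicate 3. Whether reads were split between the 2 IDs in counting was not tested.

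The trimming enzyme CPE (ENSDARG00000055874) had 473, 114, 1113, 481, 551 and 389 FPKM in injury replicates 1 to 6, against 273, 776, 222, 264 and 477 FPKM in distal replicates 1 to 5. The amidating enzyme PAM (ENSDARG00000100170) had 408, 209, 940.5, 304, 767 and 359.6 FPKM at the injury, against 214, 828, 245, 311 and 494 FPKM in distal segments. In both genes injury replicate 3 and distal replicate 2 were the highest of their groups. The differences were 0.26 ± 0.52 for CPE and 0.24 ± 0.49 for PAM on the log2 scale, with exact permutation p of 0.645 and 0.63. Of the 10 members above 0 in every library, 6 had their highest value in injury replicate 3, as did 27.3% of the 2287 genes of the table that were above 0 in every library.

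**Figure D2:**
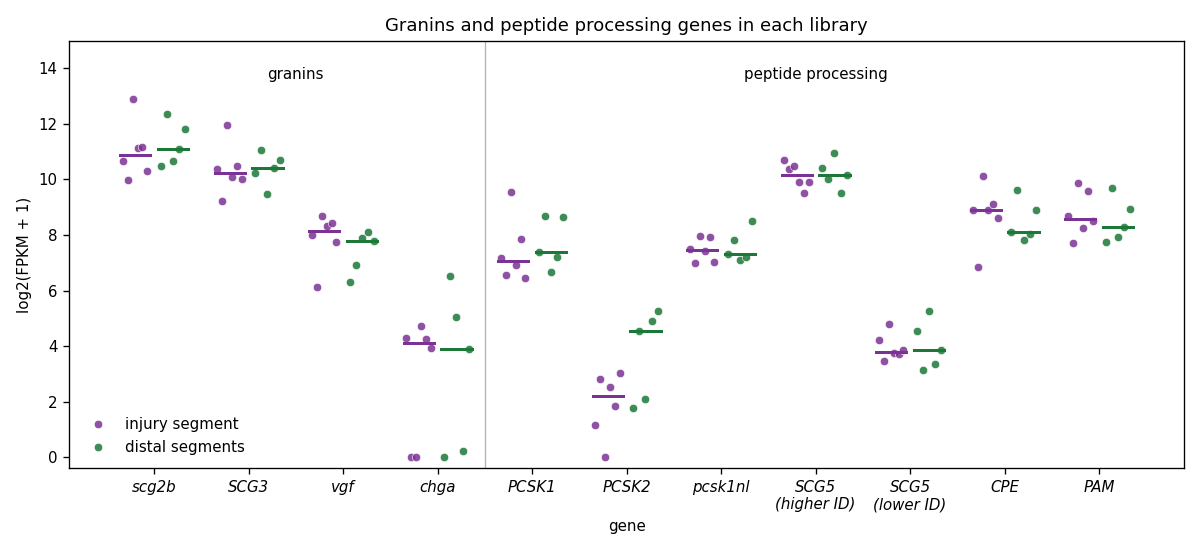
Log2(FPKM + 1) of 4 granins and 7 processing genes (horizontal axis) in each library, with the injury segment in purple on the left and distal segments in green on the right, and horizontal bars for group medians. The groups overlap for each gene, and chga and PCSK2 lie well below the other granins and convertases.

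Only 1 precursor, sst6, was above 0 in every library. This somatostatin paralog (ENSDARG00000093804), whose family encodes inhibitory peptides, was at 261, 168, 109, 309, 122 and 184 FPKM in injury replicates 1 to 6, against 107, 101, 163, 147 and 93.5 FPKM in distal replicates 1 to 5. All 6 injury values were above the lowest 3 distal values, and 4 were above the highest distal one. Its mean was 192 ± 78.6 FPKM at the injury and 122 ± 30.7 FPKM in distal segments (SD, n = 6 and 5). The log2 difference of 0.59 ± 0.56 had an unadjusted limma p of 0.301 and an exact permutation p of 0.0909. After rescaling each library to the same sum, or without injury replicate 3 or injury replicate 5, the exact p was 0.0433, 0.0397 and 0.0397. These settings were singled out of the alternatives because their exact p was under 0.05. The unadjusted limma p of sst6 lay between 0.0947 and 0.487 over all 25 alternative fits. The other somatostatin gene of the list, sst2, was listed at 0 in all libraries.

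Among tachykinins, tac3a (ENSDARG00000093089) was the most abundant. It encodes neurokinin B, which in fish acts in the control of reproduction and in other circuits. It was listed at 35.4, 0, 0, 58.8, 2.58 and 78.5 FPKM in injury replicates 1 to 6, against 363, 19.2, 157, 40.3 and 47.5 FPKM in distal replicates 1 to 5. All distal libraries held it, and 2 of the 6 injury libraries did not, which were also the 2 with the fewest genes detected. The log2 difference was -3.02 ± 1.14, with an unadjusted limma p of 0.0134, an adjusted p of 0.838 and an exact permutation p of 0.0844. The unadjusted p was 0.0515 without distal replicate 1 and 0.134 without injury replicates 2 and 3, a set left out after the data were seen, for which the difference was -1.41 ± 0.90.

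The other tachykinin precursors passed no test. The tac4 gene was listed at 97.9, 0, 0, 0, 3.08 and 11.8 FPKM at the injury, against 14.1, 0, 11.99, 0 and 20.7 FPKM in distal segments, so that 1 injury library stood well above all others. The tac1 gene, the source of substance P, reached 13.8 and 6.16 FPKM in injury replicates 5 and 6, against 2.34 FPKM in distal replicate 5, with no fragment elsewhere. The second neurokinin B paralog, tac3b, was above 0 in 1 injury library, at 3.81 FPKM, and in 2 distal libraries, at 11.1 and 0.473 FPKM.

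Among opioid precursors, penka differed most between the groups. Proenkephalin a (penka, ENSDARG00000004869), the source of enkephalins, was listed at 0.0373, 24.5, 0, 0, 132 and 192 FPKM in injury replicates 1 to 6, and at 0 in all 5 distal libraries. The value of 0.0373 FPKM stood for 1 fragment, and those of 24.5, 132 and 192 FPKM for 693, 2699 and 4670 fragments. At these depths 0 fragments allow up to 0.106 to 0.147 FPKM of this gene per library, taking 3 fragments as the limit and covering counting error only. The difference of 3.23 ± 1.26 on the log2(FPKM + 1) scale depends on the pseudocount, with an unadjusted limma p of 0.0165 and an adjusted p of 0.838. The exact permutation p was 0.106, the smallest these values can give. Under alternatives it was 0.0476 without injury replicate 3 or 4 and 0.105 to 0.167 otherwise. Without injury replicate 5 or 6 the unadjusted p was 0.0522 and 0.0502. Without both, a set left out after the data were seen, the difference was 1.18 ± 0.75 with an unadjusted p of 0.125.

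The second proenkephalin ID, PENK, was above 0 only in injury replicate 5, at 1.17 FPKM. Prodynorphin (pdyn) occurred at both sites, at 4.02, 3.29 and 46.3 FPKM in injury replicates 4 to 6 and at 15.8 and 82.3 FPKM in distal replicates 3 and 5. Pro-opiomelanocortin, the precursor of beta-endorphin and of adrenocorticotropin, was at 0.995 FPKM in injury replicate 2 (POMC) and otherwise at 0 (POMC and pomcb).

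Prepronociceptin b (pnocb, ENSDARG00000024189), which the study displayed as differing between these same libraries, encodes nociceptin, an opioid-related peptide. It was at 20.7 and 40.6 FPKM in injury replicates 5 and 6, while 0 FPKM was listed for injury replicates 1 to 4 and for all 5 distal libraries. The log2 difference of 1.64 ± 0.93 had an unadjusted limma p of 0.0892. With 2 libraries above 0 the exact permutation p was 0.455, the smallest these values can give. Its paralog pnoca was found in injury replicate 5 alone, at 5.10 FPKM. The study called genes at an unadjusted p under 0.05 with DESeq on counts. It also reported in situ hybridization at an earlier time after injury, with pnocb in ISNs of the injury segment and not in distal ISNs.

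The urotensin II-related peptides followed the same libraries. Urp1 and Urp2 are made in the zebrafish spinal cord by neurons that contact the cerebrospinal fluid, and they act in the straightening of the body axis. The urp1 gene (ENSDARG00000093493) was at 213 and 537 FPKM in injury replicates 5 and 6 and at 0 in the other 4, against 0, 0, 0.509, 0 and 4.03 FPKM in distal replicates 1 to 5. Its log2 difference was 2.22 ± 1.43 (unadjusted limma p = 0.132, exact permutation p = 0.455), and without injury replicates 5 and 6 it was -0.58 ± 0.48. The urp2 gene, singled out after its values were seen, was at 19.5 and 141 FPKM in the same 2 injury libraries and at 0 in all others. Urotensin II itself (uts2a and UTS2) was less abundant. The ID uts2a reached 2.36 and 1.13 FPKM in injury replicates 1 and 6 and 1.57 FPKM in distal replicate 3, and UTS2 reached 0.0907 and 2.096 FPKM in injury replicates 1 and 6. The name uts2d was kept by its letter alone, and whether that letter marks a paralog of uts2 was not tested. It was at 17.5, 0, 0, 19.2, 5.82 and 7.03 FPKM at the injury and at 64.5 FPKM in distal replicate 5 only.

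Of the CART genes, whose peptides act in feeding and stress circuits, cart4 matched. It was listed at 39.7, 0, 0, 0.0811, 53.4 and 38.8 FPKM in injury replicates 1 to 6, against 0, 0, 7.40, 0 and 0 FPKM in distal replicates 1 to 5. The 3 highest libraries were all from the injury, and its difference was 2.14 ± 1.18 on the log2 scale (unadjusted limma p = 0.081, exact permutation p = 0.139). Hypocretin (HCRT), the arousal peptide of the hypothalamus, was less abundant, at 8.43, 0, 18.5, 0, 0.728 and 7.69 FPKM at the injury, against 0, 0, 1.46, 0 and 0.116 FPKM in distal segments. Its unadjusted limma p was 0.0864. The cart4 and HCRT genes were singled out after their values were seen.

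Several other precursors were high in injury replicate 6. Galanin (GAL) reached 454 FPKM there, and its only other value was 0.0855 FPKM in injury replicate 4. Neuromedin U (NMU) reached 205 FPKM there and 1.69 FPKM in distal replicate 5. Cholecystokinin (CCK) was at 188 FPKM there and at 0 in all 10 other libraries. The adcyap1b gene, which encodes the peptide PACAP, was at 16.7 and 58.5 FPKM in injury replicates 5 and 6 and at 5.89 and 0.0294 FPKM in distal replicates 1 and 4. Values of a single library carry no replicate check.

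The remaining precursors were rare or absent. Neuromedin B (nmba) was at 13.1 and 4.62 FPKM in injury replicates 5 and 6 and at 1.37 FPKM in distal replicate 5. Oxytocin (oxt) was at 1.61 FPKM in injury replicate 5 and at 13.9 and 2.41 FPKM in distal replicates 1 and 5. The agrp gene, an antagonist of melanocortin receptors, was above 0 in 1 library of each group, at 6.74 FPKM at the injury and 4.75 FPKM in a distal segment. The pth2, CRH, crha and NTS genes stayed below 1 FPKM and occurred in 1 or 2 injury libraries each. Listed at 0 in all 11 libraries were ADCYAP1, TRH, sst2, NPY, grp, avp, pomcb, nmbb, VIP and vipb, 10 in all. Thyrotropin-releasing hormone and neuropeptide Y were therefore not detected in these libraries.

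**Figure D3:**
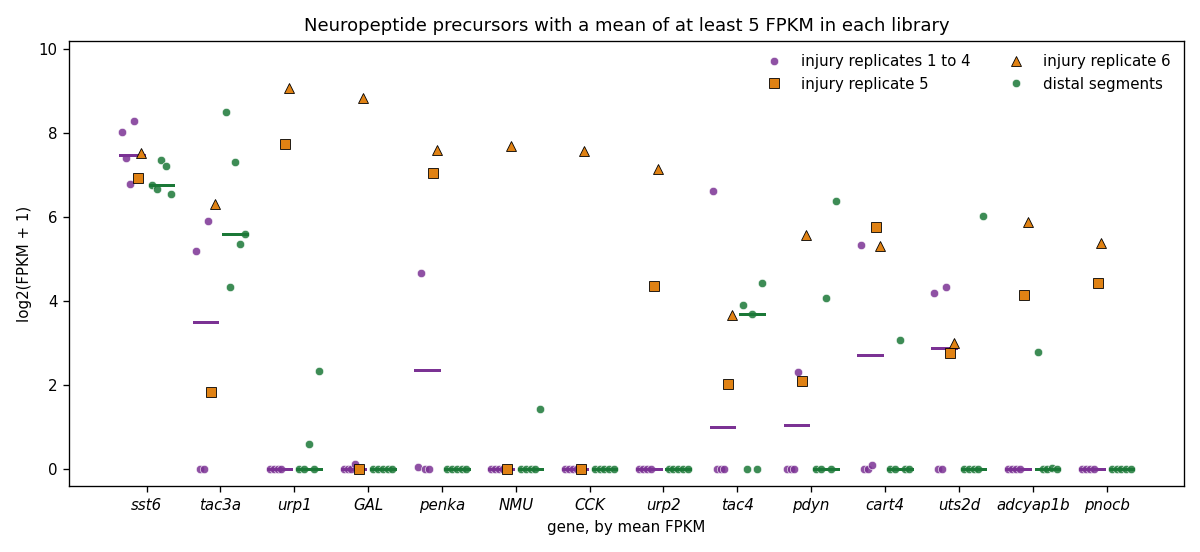
Log2(FPKM + 1) of the 14 precursors with a mean of at least 5 FPKM (horizontal axis, by mean), with the injury segment on the left, its replicates 5 and 6 drawn in orange, distal segments in green on the right, and horizontal bars for the medians of all 6 or 5 libraries. Only sst6 is above 0 in every library, and tac3a is above 0 in every distal library. The genes urp1, GAL, penka, NMU, CCK, urp2, cart4, adcyap1b and pnocb are highest in injury replicates 5 or 6, as were 26.7% of all 29512 genes ever above 0.

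Taking precursors together, 29 of the 39 were above 0 in at least 1 library. Of the 29, 16 were found in both groups, 13 in injury libraries only and 0 in distal libraries only. Of all 29512 genes ever above 0, 18.2% were found in injury libraries only and 8.15% in distal libraries only, and there is 1 injury library more. Among the 13, 7 were above 0 in injury replicates 5 or 6 alone (pnocb, pnoca, CRH, PENK, NTS, urp2 and CCK). These 2 libraries were singled out after the values were seen. They also detected the most genes, 16019 and 15362 at 1 FPKM or more. The share of all genes found in these 2 alone was not computed.

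The share of the 29 precursors above 0 was 31.0%, 13.8%, 6.9%, 27.6%, 72.4% and 65.5% in injury replicates 1 to 6, against 20.7%, 6.9%, 27.6%, 10.3% and 44.8% in distal replicates 1 to 5. For all genes it was 62.7%, 23.6%, 18.1%, 41.1%, 73.1% and 70.7% in the injury libraries, against 46.6%, 35.2%, 55.3%, 41.8% and 64.3% in the distal libraries. The precursors' share was nearest to that of all genes in injury replicates 5 and 6, and in injury replicate 1 and distal replicate 3, which also detected many genes, it was much lower. The 29 include 7 that were above 0 in injury replicates 5 or 6 alone, so the shares of these 2 libraries are in part fixed by how the 29 were chosen. All genes were chosen in the same way. Over all 50 members, 21.0 ± 8.44 were above 0 per injury library and 17.2 ± 4.44 per distal library (SD, n = 6 and 5), a difference smaller than either spread. The summed FPKM of all precursors other than sst6 was 201, 25.7, 18.5, 89.9, 511 and 2021 in injury libraries, against 408, 19.2, 196, 40.4 and 232 in distal libraries.

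**Figure D4:**
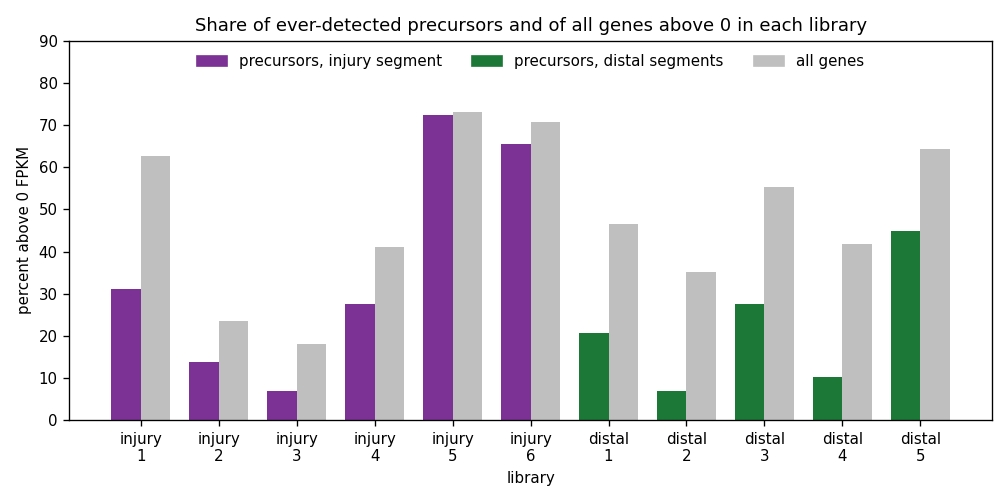
Percentage of the 29 precursors ever detected (coloured bars) and of all 29512 genes ever detected (grey bars) that were above 0 FPKM in each library (horizontal axis), injury libraries in purple and distal libraries in green. In injury replicates 5 and 6 the coloured bars reach 72.4% and 65.5%, near the grey ones, and in the other libraries they stay further below. The 29 include 7 precursors above 0 in these 2 libraries alone.

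Markers of other cell types were examined beside these values. GATA2 and GATA3, which also mark serotonergic neurons, were set aside from the markers of cerebrospinal fluid-contacting neurons, leaving 15 IDs. In injury replicates 5 and 6, 14 and 12 of these IDs were above 0, beside 73.1% and 70.7% of the 29512 genes ever above 0. The bases differ, since the 15 IDs include 1 that was at 0 in every library. In the other injury libraries 2 to 10 of the IDs were above 0, and in distal libraries 5 to 10. The summed level of the 15 IDs was highest in injury replicates 5 and 6, at 218 and 214 FPKM. The ranges of 93.0 to 218 FPKM in injury libraries and 76.1 to 193 FPKM in distal libraries overlapped. SOX1 (ENSDARG00000008131) and GAD2 were above 0 in every sorted library and enter the sum in each. Which cells expressed them was not tested. These 2 IDs were at 134 and 51.7 FPKM in injury replicate 5. In injury replicate 3, at 104 and 78.7 FPKM, they were the only IDs above 0. With GATA2 and GATA3 counted, 8 of 17 IDs had their highest value in injury replicate 5 or 6, beside 26.7% of all genes ever above 0. The 8 were SOX1 (ENSDARG00000008131), PKD2L1, pkd1l2a, 1 pkd1l2b ID, 1 GAD1 ID, TAL1, TAL2 and SLC32A1. The markers did not go one way. The channel PKD2L1, which defines these cells, was at 3.39, 0, 0, 0, 0.595 and 32.7 FPKM in injury libraries, against 5.71, 0, 3.90, 0 and 1.03 FPKM in distal libraries, so that it was high in injury replicate 6 and low in injury replicate 5. USH1C and ESPN, which encode proteins of actin-based cell protrusions, were at 0 to 0.354 and 0 to 2.02 FPKM in injury libraries, against 7.75 to 31.8 and 9.10 to 64.3 FPKM in distal libraries.

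Of 10 IDs of ependymo-radial glia, 8 and 9 were above 0 in injury replicates 5 and 6. The 10 include 1 at 0 in every library. Of the 10, 5 had their highest value in injury replicate 5 or 6, beside 26.7% of all genes ever above 0. GFAP was at 33.1 and 31.1 FPKM there and at no more than 3.89 FPKM in any other library. Both GLUL IDs, the most abundant of the list, were highest in distal libraries, at 544 and 236 FPKM, and FOXJ1 was highest in distal replicate 4. The summed level of the glial IDs was 499 and 542 FPKM in injury replicates 5 and 6 and spanned 113 to 542 FPKM in injury libraries, against 56.3 to 765 FPKM in distal ones. The 6 IDs of motor neurons summed to no more than 12.1 FPKM in any injury library and 0.0740 FPKM in any distal one. The 2 glycinergic IDs summed to 35.3 and 37.8 FPKM in injury replicates 5 and 6, and injury replicate 2 came next, at 9.39 FPKM. In injury replicates 5 and 6, SLC6A9 was at 35.0 and 31.3 FPKM and SLC6A5 at 0.239 and 6.49 FPKM. These sums thus rest mostly on SLC6A9 and do not measure glycinergic neurons alone. Both erythrocyte IDs were above 0 in injury replicate 6 alone, with a sum of 21.3 FPKM. Oligodendrocyte markers reached 692.5 FPKM in that library, within the distal range, while the other injury libraries stayed at 63.6 FPKM or less. IDs of microglia and macrophages had their highest sum in injury replicate 3, at 191 FPKM, but nearly all of it came from AIF1L, at 190.6 FPKM. There csf1ra was at 0.0575 FPKM and all other IDs of that list were at 0. AIF1L was above 0 in every library except distal replicate 2. The part of any of these cell types in the precursor values was not tested.

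Other genes of the peptide pathway were taken from set lists, which, like the members, were chosen with earlier results of these data known. The p-values of their genes, chgb among them, therefore describe the data and do not test a choice made beforehand. Of 24 further precursors and granins tested, 0 were higher and 1 lower at the injury at an unadjusted p under 0.05, where 0.658% and 2.03% of all genes tested were. The median log2 difference was 0.30, beside -0.04 for all genes. Of the 24, 9 were at 0 in every distal library and 4 in every injury library, beside 2892 and 1051 of all 24178 genes tested. The 1 called was chromogranin B (chgb, ENSDARG00000076500), a granin of dense core vesicles that the choice by name does not include. It was at 352, 317, 997, 125, 402 and 198 FPKM in injury replicates 1 to 6, against 1138, 1126, 1182, 1474 and 1068 FPKM in distal replicates 1 to 5. All injury libraries lay below all distal ones, a pattern found in this direction in 0.186% of all genes tested. The log2 difference was -1.88 ± 0.45, with an unadjusted limma p of 0.00026, an adjusted p of 0.838 and an exact permutation p of 0.00433. The myelin gene mbpa, a marker of oligodendrocytes, was also lower at the injury, at 0 to 234 FPKM, against 129 to 531 FPKM in distal libraries. All 8 oligodendrocyte markers summed to 35.0, 63.6, 0, 41.7, 60.5 and 692.5 FPKM in injury replicates 1 to 6. In distal replicates 1 to 5 the sums were 698, 576, 443, 253 and 157 FPKM. Injury replicate 6, with chgb at 198 FPKM, was the only injury library within the distal range of these sums. The part of oligodendrocytes in the chgb values was not tested.

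Of 19 further convertases, trimming and cyclising enzymes tested, 0 were higher and 0 lower at an unadjusted p under 0.05 (0.658% and 2.03% of all genes tested), with a median difference of -0.13, and the 3 with the highest mean were ctsla, CTSB and QPCT, at means of 229, 60.8 and 42.4 FPKM. Of 46 genes of dense core vesicle formation and release tested, 0 were higher and 1 lower, with a median difference of -0.11. A single call among 46 is near the 2.03% of all genes tested that were lower, and it was ICA1, a vesicle-associated protein, at 9.74, 0, 21.9, 0, 12.4 and 16.2 FPKM at the injury, against 19.4, 27.6, 31.7, 45.5 and 17.7 FPKM in distal segments (-2.16 ± 0.97 on the log2 scale, unadjusted limma p = 0.035, exact permutation p = 0.0325). The unadjusted limma p of ICA1 was 0.103 without injury replicate 4, 0.0798 without injury replicate 2 and 0.0755 without distal replicate 4. Of 13 peptidases that break peptides down, 0 were higher and 1 lower, beside 0.658% and 2.03% of all genes tested, with a median difference of 0.16. The 1 was the aminopeptidase ENPEP, at 18.6, 0, 28.7, 7.21, 8.51 and 11.95 FPKM in injury libraries, against 33.8, 76.9, 21.8, 62.8 and 89.2 FPKM in distal libraries (-2.49 ± 0.91, unadjusted limma p = 0.0106, exact permutation p = 0.00866). Its 2 groups overlapped through 1 library of each.

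A few peptide precursors lie outside the choice by name and were singled out after their values were seen, with no test given. Urocortin 3 (UCN3, ENSDARG00000087241), a peptide of the corticotropin-releasing hormone family, was far more abundant than any member. It was at 23760.0, 23250.0, 19990.0, 22640.0, 19600.0 and 20650.0 FPKM in injury replicates 1 to 6, against 25830.0, 22520.0, 9470.0, 19610.0 and 19950.0 FPKM in distal replicates 1 to 5. All libraries but distal replicate 3 lay close together, and the injury values fell within the distal range. The gene named SST (ENSDARG00000040799), a further somatostatin, was at 19.5 and 1092 FPKM in injury replicates 5 and 6 and at 3.64 FPKM in distal replicate 5, and at 0 in all others. One ID of CARTPT (ENSDARG00000035852) was at 42.4, 0, 0, 0, 2.02 and 17.0 FPKM at the injury, against 13.2, 71.5, 2.08, 0 and 34.7 FPKM in distal segments. SST was thus high in the injury library in which GAL, NMU and CCK were high, while this CARTPT ID, unlike cart4, had its highest value in a distal library. Further precursors of the set lists, also singled out by value, were high in single libraries of either group. The pyya gene was at 2029 FPKM in injury replicate 6. The nppc gene was at 345 FPKM there and at 537 FPKM in distal replicate 1. The rln3a gene was at 125 FPKM in injury replicate 5 and at 198 FPKM in distal replicate 1.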

How the data were processed

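ISNs were sorted as GFP-positive cells, and cDNA was made with a low-input SMART-Seq kit and sequenced as paired ends. The deposited table holds FPKM, which the authors calculated from gene length and mapped reads. The submitters' processing notes name HISAT2 2.0.5, HTSeq 0.9.1 and danRer11, and the authors tested with DESeq on counts not used here. Symbols came from a gene name reference joined on the Ensembl ID, and coordinates and sequences were not used. Columns of no sample numbered 0.

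Fragments were recovered from FPKM as whole multiples and used for depth, limits and voom. The main test was limma (version 3.58.1, R 4.3.3; lmFit, then eBayes with trend) on log2(FPKM + 1) of genes whose mean reached 0.1 FPKM, two-sided, Benjamini-Hochberg adjusted over all 24178. Fold changes on this scale understate those of low genes. For single genes, a two-sided exact permutation test ran over all 462 ways to divide the 11 libraries, so that p cannot go below 0.00216. Scripts were tested on simulated data, using Python 3.11.15 with scipy 1.17.1, numpy 2.4.6, pandas 2.3.3 and, for figures, matplotlib 3.10.9.

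Values per library are given for members with a mean of at least 50 FPKM, an unadjusted p under 0.05, groups that do not overlap, or a group at 0 with at least 3 libraries above 0 in the other, and for pnocb. Others are said to be singled out or given by their values above 0. From each pathway list the genes with an unadjusted p under 0.05 are named, otherwise the 3 most abundant. The members and lists were chosen with earlier results of these data known. Alternatives were another pseudocount (0.1 or 0.01), another filter on low values (none, or a mean of 1 FPKM), sum, median-ratio and quantile scaling, a prior without trend or robust, voom, a replicate block and leaving out each library. Leaving out injury replicates 5 and 6, or 2 and 3, and genes detected as a covariate were added after the data were seen.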

Additional observations from a re-analysis of the deposited data

Results flagged for a closer look

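In 3 of 31 groups of libraries examined for the members described, 1 library stood apart from its group on log2(FPKM + 1). For normally distributed values chance alone marks about 1 group in 20. That rate does not hold for groups made mostly of 0, such as the distal groups of cart4 and urp1. The cart4 gene was at 7.40 FPKM in distal replicate 3 and at 0 in the other distal libraries. The urp1 gene was at 4.03 FPKM in distal replicate 5, where the next distal value was 0.509 FPKM. The vgf gene was at 68.2 FPKM in injury replicate 2, below the other 5 injury libraries at 212 FPKM or more.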

How the results depend on the processing

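No member had an adjusted p under 0.05 under any of 25 alternative fits. The count of members higher at the injury at an unadjusted p under 0.05, 1 as reported (all genes 0.658%), was 0 with no filter on low values (all genes 0.644%; penka lost), 2 with quantile normalization (1.3%; cart4 gained), 0 without injury replicates 5 and 6 (0.404%), 5 without injury replicates 2 and 3 (3.6%) and 4 with genes detected as a covariate (1.8%), so that the share of all genes moved as well. Leaving out 1 library at a time gave 0 to 3 (all genes 0.435% to 1.59%). The count of members lower, 1 as reported (2.03%), was 2 with a prior without trend (2.57%), where PCSK2 was gained. It was 0 without injury replicates 2 and 3 (0.886%), and 1 to 2 when leaving out 1 library (1.38% to 2.56%). The replicate number as a block gave 0 higher (0.538%) and 2 lower (2.34%; tac3a and PCSK2), and injury replicate 6 then has no partner. Deviations of same-numbered libraries correlated at -0.0465 to 0.133, not every library correlated best with its own number, and the numbers were not taken to pair libraries.

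Of 496 log2 differences recomputed, 20 changed sign, none of them past a threshold, and 13 of 20 genes never did. The difference of SCG3 was 0.0203 without injury replicates 5 and 6, 0.0151 with quantile normalization and 0.0361 with the replicate block. Without injury replicates 5 and 6 it was 0.17 for SCG5 (ENSDARG00000032126) and -0.58 for urp1, and without injury replicates 2 and 3 it was 1.17 for chga. Leaving out 1 library gave ranges of -0.35 to 0.20 for SCG3, -1.05 to 0.58 for chga, -0.23 to 0.13 for SCG5, -0.64 to 0.00309 for scg2b, -0.0167 to 0.64 for CPE and -0.24 to 0.12 for pcsk1nl. The causes were not tested. Genes below about 3 fragments per library are beyond this depth, a limit that covers counting error only. The number of genes detected did not follow depth. Injury replicate 3 had 16340206 fragments and 4530 genes at 1 FPKM or more, and injury replicate 5 had 14215980 fragments and 16019 genes.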
